A study of Mus musculus with 16 samples.

Results

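Inflamed colonic mucosa of sulindac-fed mice labelled wild type was set against normal mucosa from control-fed mice of that genotype. The comparison uses 9 of the 16 arrays of the series, chosen by their titles: 3 lesion arrays (floxed Mcc, sulindac) and 6 control arrays (floxed Mcc, control feed). Every array holds RNA of the colonic mucosal layer of male C57BL/6J mice, which were 6 weeks old when they were put on their diet and ate it for 10 weeks. The sulindac diet held 320 ppm of the drug. Lesion mucosa was taken from inflamed areas of the proximal colon alone, and control mucosa from the corresponding site. The mice called wild type carry 2 loxP-flanked Mcc alleles (Mccf/f) without Cre, so both groups share the floxed allele. Mcc is the gene named mutated in colorectal cancers. The mice are siblings of animals in which Cre under the villin promoter removes Mcc from the intestinal epithelium. Those knockout mice gave the other 7 arrays, 3 of control mucosa and 4 of lesions, which entered the estimate of the spread and the test of genotype. No array of uninflamed mucosa from a sulindac-fed mouse was used here, so the drug, the inflammation and the choice of site cannot be told apart. The labels do not say that each array is a separate animal, and the p-values below measure the spread between these samples, which may be technical.

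Sulindac is a non-steroidal anti-inflammatory drug. Its active metabolite blocks the cyclooxygenases, the enzymes that turn arachidonic acid into prostaglandins, and prostaglandin E2 supports mucus and fluid secretion and the repair of the gut lining. Drugs of this class are known to injure the intestinal mucosa, where a breach brings in neutrophils and monocytes and sets off signalling by interleukin-1, TNF and interferons. Colonic mucosa at rest is mostly absorptive colonocytes with goblet, enteroendocrine, tuft and stem cells, above a connective tissue of fibroblasts, vessels and leukocytes.

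Values are log2 expression levels, so a difference of 1 is 2-fold. Every difference is the lesion mean minus the control mean, given with its standard error (n = 3 lesions and 6 controls). A gene is called higher or lower where the Benjamini-Hochberg adjusted p of the limma fit over 30702 genes is under 0.05. Over all genes 6.98% were called higher and 8.37% lower, and each list count below is to be read beside these shares. Lesion values are listed in the order of lesions 1, 2 and 3, and control values as lowest, median and highest. An array has a floor, and a gene whose lower group averaged under 4.96, the median of all values, has a fold that is a lower bound and is written as "at least". Levels of different genes rest on different probes and are not compared with each other. In bulk tissue, fewer cells of a type and less RNA per cell cannot be told apart.

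The 9 arrays fell into their 2 groups on principal component 1 (56.7% of their variance). Lesions lay between 43.47 and 49.29 on it and controls between -26.97 and -20.51. The second component held 15.5% and set controls 1 and 2 (26.78 and 26.58) apart from controls 3 to 6 (-21.11 to -6.45). Sample descriptions carry running numbers, and the lesions and controls 1 to 3 have lower numbers than controls 4 to 6. Ribosomal RNA genes differed along those numbers. The 62 such genes averaged 10.49, 10.88 and 9.62 on controls 1 to 3, 8.43, 8.79 and 8.54 on controls 4 to 6, and 10.31, 10.50 and 9.85 on the lesions, and 0 of them were called. Array medians ran from 4.90 to 5.05.

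Most markers of other tissues were not called, and of all genes 15.4% were called. The epithelial adhesion molecule Epcam read 12.05, 12.12 and 12.13 against 11.94 to 12.12 (median 12.05) on the controls, and 0 of 10 pan-epithelial genes were called. Among 12 smooth muscle genes 0 were called, and Myh11, the smooth muscle myosin, read 6.35, 6.38 and 6.31 against 6.04 to 7.28 (median 6.31) on the controls. Adipocyte genes gave 0 calls of 8 and the distal Hox genes 0 of 6. Exocrine pancreas genes gave 1 lower of 8, small intestine genes 1 higher and 1 lower of 11, and enteric glia and neuron genes 1 higher of 10. Sprr1a, a cornified-envelope protein, was the 1 called member of 13 squamous genes, at 2.22 ± 0.37 (4.66-fold, adjusted p = 0.00065), while basal keratin Krt5 was at 0.08 (adjusted p = 0.548). Mcc, intact in both groups, read 7.40, 7.09 and 7.18 against 7.06 to 7.35 (median 7.13) on the controls, with overlapping ranges (difference 0.06 ± 0.08, adjusted p = 0.669).

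In all, 2144 genes (6.98% of those tested) were higher in the lesions and 2569 (8.37%) were lower, together 15.4%. At least 2-fold, 536 genes were higher (1.75%) and 263 lower (0.857%). Lesion and control arrays did not overlap for 6050 genes, 19.7% of all, among them 1948 of those called higher and 2315 of those called lower. The median difference over all genes was -0.06. Of the genes called, 45.5% were higher, a share that rests on the scaling of the arrays: with every array shifted to 1 common median it was 57.4%, and with a common mean of mid-level rows 56.5%. Without lesion 3 the fit called 1559 genes higher and 1598 lower. With only controls 1 to 3, whose numbers are of the same series as those of the lesions, it called 2110 higher and 1531 lower.

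**Figure D1:**
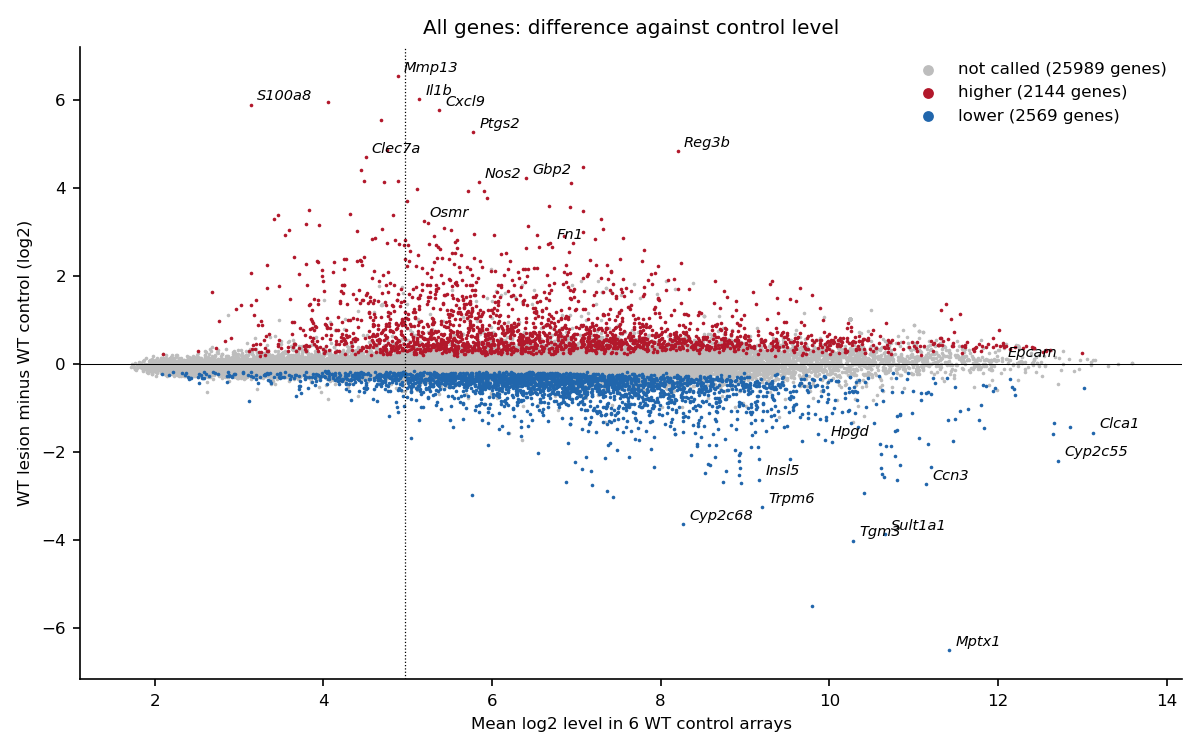
Each point is 1 of 30702 genes, by its mean log2 level in the 6 controls (horizontal) and the lesion minus control difference (vertical). Genes called higher (2144) are red, genes called lower (2569) blue and the rest grey, and the dotted line marks 4.96, the median of all values. The rises of Mmp13, Mmp10 and S100a8 start left of that line, and the falls of Mptx1 and Tgm3 start from high control levels.

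Interleukin-1 genes rose in the lesions, in which leukocyte markers were higher too. Neutrophil genes averaged 6.26 to 6.68 over their 21 members on the lesions and 4.90 to 5.08 on the controls, and the part of these cells in the rises below was not tested. Of 16 measured members of the family 9 were higher and 1 lower, and their median difference was 0.67. Il1b, the secreted cytokine of neutrophils and macrophages, read 11.43, 11.17 and 10.86 against 4.82 to 5.62 (median 5.05) on the controls. That is a difference of 6.02 ± 0.26 (64.8-fold, adjusted p = 2.35e-09), and the lowest lesion lay far above the highest control. Il1a, which cells release on damage, read 10.19, 10.39 and 9.47 against 3.83 to 4.36 (median 4.01) on the controls, 5.96 ± 0.48 (at least 62.4-fold, adjusted p = 8.98e-07). The receptor antagonist Il1rn, which blocks both, rose as well, by 2.39 ± 0.29 (5.26-fold, adjusted p = 3.82e-05), from controls that already spread from 6.79 to 8.22. Il33, an alarmin of epithelium and stroma, read 7.65, 6.94 and 6.12 against 4.22 to 4.65 (median 4.51) on the controls, and the 3 lesions were spread over more than 1 log2 unit. Its difference was 2.43 ± 0.43 (at least 5.38-fold, adjusted p = 0.0011). The decoy receptor Il1r2 rose by 2.09 ± 0.34 (at least 4.27-fold, adjusted p = 0.000459) and Il1f9 (IL-36 gamma) by 2.31 ± 0.34 (at least 4.97-fold, adjusted p = 0.000225), whereas Il18 (-0.42, adjusted p = 0.143) and the signalling receptor Il1r1 (-0.32, adjusted p = 0.169) did not pass the test.

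Signals that act through STAT3 rose next to it. Of 14 genes of the IL-6 family 8 were higher and 0 lower, with a median of 0.50. Osmr, the receptor of oncostatin M on stroma and epithelium, read 8.41, 8.79 and 8.10 against 5.05 to 5.46 (median 5.15) on the controls. The controls lay within a narrow band and every lesion was about 3 units above it, at 3.24 ± 0.15 (9.47-fold, adjusted p = 3.55e-09). Il6 itself read 5.75, 5.43 and 4.43 against 3.10 to 3.18 (median 3.14) on the controls, a rise of 2.07 ± 0.46 (at least 4.19-fold, adjusted p = 0.0058) with lesion 3 lowest. Stat3 rose by 0.57 ± 0.09 (1.49-fold, adjusted p = 0.000528) and its target, the kinase Pim1, by 1.10 ± 0.17 (2.15-fold, adjusted p = 0.000344). The ligand Osm was at 0.69 (adjusted p = 0.109).

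Chemokines and receptors that draw neutrophils and monocytes rose. Among 10 neutrophil chemokine and growth factor genes 5 were higher and 0 lower. Cxcl2 read 8.21, 7.86 and 7.24 against 4.54 to 4.81 (median 4.71) on the controls, 3.07 ± 0.51 (at least 8.40-fold, adjusted p = 0.000646). Lesion 3 was the lowest lesion and lay over 2 units above the highest control. Cxcl1 rose by 1.64 ± 0.25 (3.12-fold, adjusted p = 0.000308) and Cxcl5 by 1.65 ± 0.14 (at least 3.13-fold, adjusted p = 9.94e-07). Csf3r, the receptor of the neutrophil growth factor G-CSF, rose by 1.53 ± 0.20 (2.89-fold, adjusted p = 9.3e-05), while its ligand Csf3 was at 0.00 (adjusted p = 0.984). Of 18 CC chemokine and receptor genes 5 were higher and 2 lower. The monocyte receptors Ccr1 and Ccr2 rose by 1.96 ± 0.25 (at least 3.90-fold, adjusted p = 7.74e-05) and 1.23 ± 0.14 (at least 2.34-fold, adjusted p = 3.22e-05), and the ligand Ccl8 by 1.66 ± 0.16 (at least 3.16-fold, adjusted p = 6.9e-06). Ccl6 fell by 0.93 ± 0.20 (adjusted p = 0.0052).

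Interleukin-17 and interleukin-22, cytokines of mucosal lymphocytes that act on the epithelium, gave no call upward. Of 16 genes of that pathway 0 were higher and 2 lower, against 6.98% and 8.37% of all genes. Control means of 8 of the 16 were under the median of all values. Il17a read 5.11, 4.96 and 4.59 against 4.29 to 4.63 (median 4.56) on the controls, with lesion 3 inside the control range, and Il22 read 5.06, 4.92 and 4.92 against 4.83 to 4.99 (median 4.95) on the controls. Differences were 0.38 ± 0.26 (adjusted p = 0.366) and 0.03 ± 0.20 (adjusted p = 0.949). Il17re, a receptor subunit of the epithelium, was lower on every lesion array, at 5.90, 5.90 and 5.82 against 6.40 to 6.61 (median 6.53) on the controls, -0.65 ± 0.08 (1.56-fold lower, adjusted p = 4.19e-05). Il17a and Il22 had control means under the median of all values.

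Genes that answer interferon gamma were among the largest rises. Cxcl9, a T cell chemokine, read 11.05, 11.03 and 11.34 against 5.06 to 6.31 (median 5.21) on the controls, the highest control being control 4. Its difference was 5.77 ± 0.30 (54.6-fold, adjusted p = 1.23e-08). Cxcl10 rose by 2.09 ± 0.25 (at least 4.27-fold, adjusted p = 3.89e-05) and the transcription factor Irf1 by 0.89 ± 0.16 (1.86-fold, adjusted p = 0.0012). Ifng itself read 5.61, 5.19 and 5.28 against 3.75 to 4.07 (median 3.87) on the controls, at 1.48 ± 0.47 (at least 2.78-fold, adjusted p = 0.0464), and lost its call when any of the 9 wild-type arrays was left out (adjusted p from 0.0623 to 0.134). Of 16 genes of interferon gamma signalling 9 were higher and 1 lower, and without lesion 3 the count of higher genes was 5. The receptors Ifngr1 (0.01) and Ifngr2 (-0.06) were not called.

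Guanylate-binding proteins and immunity-related GTPases, which interferon gamma induces and which attack vacuoles of intracellular microbes, rose without exception: 11 of 11 measured members were higher, against 6.98% of all genes, with a median difference of 2.41. Gbp2 read 10.79, 10.17 and 10.90 against 5.99 to 7.03 (median 6.41) on the controls, 4.22 ± 0.28 (18.6-fold, adjusted p = 1.06e-07). Igtp (Irgm3) read 10.22, 9.52 and 9.74 against 5.67 to 6.43 (median 5.83) on the controls, 3.92 ± 0.25 (15.2-fold, adjusted p = 8.92e-08). Iigp1 read 9.05, 8.72 and 8.80 against 4.17 to 5.31 (median 4.21) on the controls, 4.41 ± 0.30 (at least 21.3-fold, adjusted p = 1.25e-07). Lesion and control arrays of all 3 were apart by at least 3 units, and the smallest rise of the list was that of Irgm1, 1.65 ± 0.10 (3.13-fold, adjusted p = 5.84e-08). In the RefSeq annotation (GRCm38.p6) 3 measured Gbp genes lie on chromosome 3 and 3 on chromosome 5, and all 6 were higher. These genes have near-identical copies, and probes may read several of them.

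Promoter sequence was searched for short motifs, as a description of letters and not of binding. The searched window ran from 250 bases before to 50 after the RefSeq start, on both strands, in 18265 genes tested, 322 genes at least 2-fold higher and 205 at least 2-fold lower. The core of the interferon-stimulated response element (GAAANNGAA) stood in 9.36% of all promoters, 19.57% of the higher and 8.29% of the lower genes, and in all 6 promoters of the GTPase list. The gamma-activated site (TTCNNNGAA) stood in 9.22%, 10.87% and 7.32%, and in 3 of those 6. Letters of the NF-kB site (GGANTTTCC) stood in 1.54% of all, 6.83% of the higher and 0.98% of the lower genes, those of AP-1 (TGANTCA) in 8.56%, 18.01% and 10.73%, and those of C/EBP (TTGCNNAA) in 11.76%, 18.01% and 15.61%. The 2 interferon motifs can overlap each other. The promoters of 3 of these GTPases are shown because their genes rose together and all hold the response element. Capitals mark motif matches on either strand, and each run is the 250 bases before the start, on the coding strand of GRCm38.p6.
Gbp2: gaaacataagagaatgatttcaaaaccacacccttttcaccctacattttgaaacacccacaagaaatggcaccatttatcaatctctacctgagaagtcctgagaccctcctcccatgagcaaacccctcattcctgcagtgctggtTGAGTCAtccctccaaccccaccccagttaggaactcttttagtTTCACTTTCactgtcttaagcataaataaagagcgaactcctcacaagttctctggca
Igtp: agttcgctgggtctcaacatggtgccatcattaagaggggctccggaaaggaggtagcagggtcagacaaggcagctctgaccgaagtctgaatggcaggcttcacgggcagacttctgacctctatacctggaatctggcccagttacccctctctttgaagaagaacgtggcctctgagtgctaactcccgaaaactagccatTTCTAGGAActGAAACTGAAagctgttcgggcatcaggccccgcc
Irgm2: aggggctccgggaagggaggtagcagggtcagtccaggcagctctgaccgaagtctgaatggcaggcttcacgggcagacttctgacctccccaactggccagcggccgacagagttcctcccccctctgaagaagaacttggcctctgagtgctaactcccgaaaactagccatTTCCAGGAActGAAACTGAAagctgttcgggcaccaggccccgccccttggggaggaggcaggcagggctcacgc
In Gbp2 the response element spans bases 193 to 201 and an AP-1 match bases 149 to 155. In Igtp the gamma-activated site spans 206 to 214 and the response element 217 to 225, and in Irgm2 they span 176 to 184 and 187 to 195. Igtp and Irgm2 share a run of 55 identical bases that starts at base 70 of the first and base 36 of the second. The windows are chr3:142620413-142620662 for Gbp2, chr11:58199306-58199555 for Igtp and chr11:58214727-58214976 for Irgm2, all on the plus strand.

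Genes of the antiviral response, induced mainly by type I interferons, were higher in 21 of 24 members with 0 lower and a median of 0.86. Their list mean was 7.51, 7.76 and 7.30 on lesions 1 to 3, highest in lesion 2. Several antiviral genes lost their call without lesion 2, such as Ifit1, Ifit3, Ifih1 and Mx2 (adjusted p = 0.0886, 0.0667, 0.142 and 0.114 in limma). Ifit2, which blocks translation of viral RNA, read 7.77, 8.10 and 7.53 against 4.88 to 5.09 (median 4.94) on the controls, 2.83 ± 0.25 (7.09-fold, adjusted p = 2.24e-06). Usp18, which removes the ISG15 modifier, read 8.49, 8.88 and 7.87 against 5.20 to 5.84 (median 5.62) on the controls, and Zbp1, a sensor of nucleic acid in Z form, 9.46, 9.60 and 9.31 against 6.87 to 7.02 (median 6.87) on the controls. Their differences were 2.82 ± 0.31 (7.08-fold, adjusted p = 1.78e-05) and 2.54 ± 0.11 (5.80-fold, adjusted p = 3.51e-09). No lesion of these 3 genes came within 1 unit of a control. Mx1 (0.11), Rsad2 (0.43) and Irf7 (-0.25) were the members that were not called.

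Antigen presentation genes rose in both classes. Of 10 class II genes 7 were higher, with a median of 1.45, and of 12 class I and immunoproteasome genes 10 were higher, with a median of 0.72; 0 were lower in either list. H2-Ab1 read 10.45, 10.29 and 10.52 against 7.26 to 7.97 (median 7.50) on the controls, 2.87 ± 0.20 (7.31-fold, adjusted p = 1.8e-07), and Ciita, the factor that switches class II genes on, rose by 1.49 ± 0.18 (2.80-fold, adjusted p = 3.78e-05). The peptide transporter Tap1 read 8.86, 8.47 and 8.66 against 6.70 to 7.02 (median 6.84) on the controls, 1.82 ± 0.12 (3.53-fold, adjusted p = 1.61e-07). H2-Ab1 and Tap1 lay above every control on all 3 lesion arrays.

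TNF, its receptors and danger sensors changed in part. Tnf read 9.02, 8.11 and 8.52 against 5.74 to 6.74 (median 6.11) on the controls, 2.34 ± 0.34 (5.06-fold, adjusted p = 0.000217), and the receptor Tnfrsf1b rose by 1.67 ± 0.15 (3.18-fold, adjusted p = 2.42e-06). In the TNF and NF-kB feedback list 9 of 20 genes were higher and 0 lower. Of 17 Toll-like receptor genes 6 were higher and 1 lower. Cd14, the co-receptor for lipopolysaccharide, rose by 1.64 ± 0.18 (3.12-fold, adjusted p = 1.97e-05), while Tlr2 was at 0.41 (adjusted p = 0.225) and Tlr4 at 0.33 (adjusted p = 0.105). Of 18 inflammasome and cell death genes 6 were higher and 0 lower (median 0.09). The necroptosis kinase Ripk3 rose by 1.71 ± 0.22 (3.28-fold, adjusted p = 8.36e-05) and its substrate Mlkl by 1.75 ± 0.10 (3.36-fold, adjusted p = 5.32e-08). Mlkl read 9.48, 9.53 and 9.66 against 7.52 to 8.09 (median 7.85) on the controls, and its lesions lay close together. The sensor Nlrp3 rose by 1.44 ± 0.29 (at least 2.72-fold, adjusted p = 0.0030), whereas Casp1 was at 0.13 (adjusted p = 0.656).

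Acute-phase genes were higher in 7 of 12 members. Steap4, a metalloreductase, read 9.50, 9.65 and 9.82 against 5.29 to 5.92 (median 5.83) on the controls, 3.94 ± 0.22 (15.3-fold, adjusted p = 2.32e-08). Ceruloplasmin (Cp), the copper ferroxidase, read 6.32, 7.45 and 7.16 against 3.66 to 4.11 (median 3.73) on the controls, 3.18 ± 0.20 (at least 9.09-fold, adjusted p = 6.91e-08). Lcn2, which binds bacterial siderophores, read 6.60, 6.68 and 6.62 against 5.03 to 5.25 (median 5.11) on the controls, 1.51 ± 0.11 (2.84-fold, adjusted p = 2.85e-07). Lesion and control arrays were apart in all 3, with lesion 1 lowest for Cp. Saa1 (-0.53) and Saa2 (-0.36) were not called, and Saa3 rose by 1.36 ± 0.13 (2.57-fold, adjusted p = 4.76e-06).

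The prostaglandin pathway, which sulindac acts on, shifted at its steps in different directions. Of 23 genes 5 were higher and 6 lower, and the median was -0.08. Ptgs2, the inducible cyclooxygenase, read 11.30, 11.45 and 10.38 against 5.36 to 6.46 (median 5.76) on the controls, with lesion 3 lowest and all lesions clear of the controls. The difference was 5.26 ± 0.37 (38.4-fold, adjusted p = 2.13e-07). Downstream, the E2 synthase Ptges rose by 0.51 ± 0.08 (1.42-fold, adjusted p = 0.000607) and the exporter Abcc4 by 1.20 ± 0.15 (2.30-fold, adjusted p = 6.56e-05). Hpgd, the dehydrogenase that inactivates prostaglandin E2, read 8.05, 8.72 and 7.91 against 9.71 to 10.14 (median 9.97) on the controls, -1.72 ± 0.32 (3.28-fold lower, adjusted p = 0.0018), and lesion 2 kept the highest level. The reductase Cbr1 fell by 0.79 ± 0.17 (adjusted p = 0.0045) and the receptor Ptger3 by 0.90 ± 0.18 (adjusted p = 0.0026). The uptake carrier Slco2a1 was at -0.62 (adjusted p = 0.0842) and the phospholipase Pla2g4a, which frees arachidonic acid, at 0.24 (adjusted p = 0.297). Of the receptors that raise cyclic AMP in many cell types, Ptger2 (0.12) and Ptgir (0.01) were not called. Ptger4 was lower, at -0.34 ± 0.11 (1.27-fold lower, adjusted p = 0.0411), with control 6 below the lesions, and lost its call (adjusted p from 0.0586 to 0.149) without lesion 1, 2 or 3 or control 1, 2, 3, 4 or 5. Of 11 leukotriene and lipoxygenase genes 1 was higher and 1 lower, close to the 6.98% and 8.37% of all genes. Both calls were lost with single arrays left out. Alox12 (0.39) had an adjusted p = 0.141 without lesion 3, and Alox5 (-0.34) adjusted p-values of 0.0519 to 0.145 without lesion 2 or 3 or control 1, 5 or 6.

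**Figure D2:**
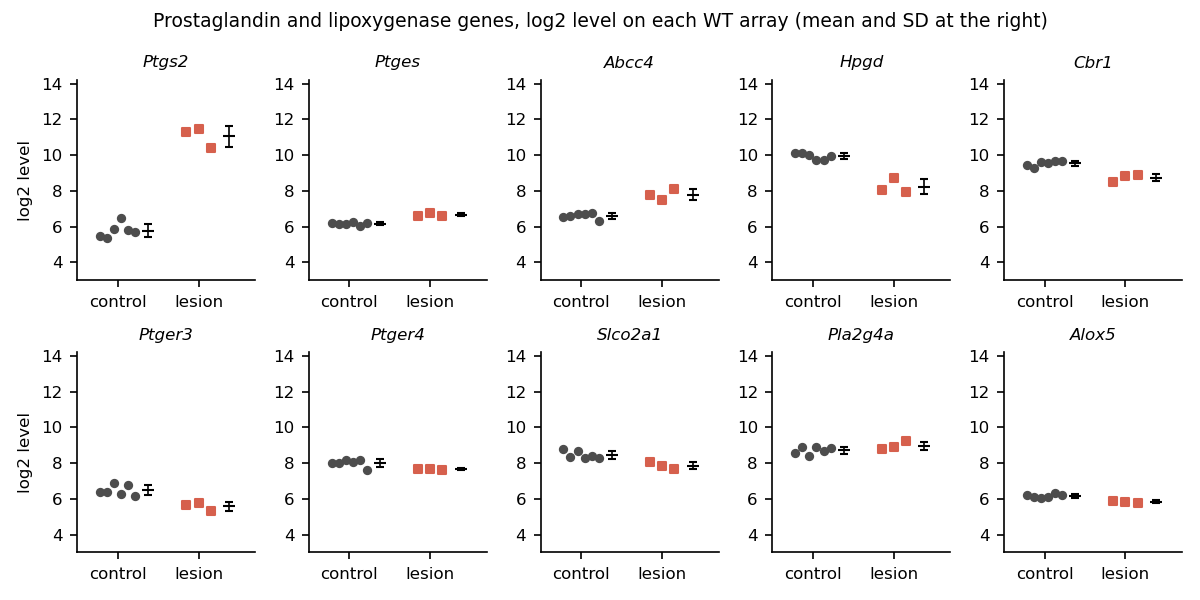
Log2 level of 10 prostaglandin and lipoxygenase genes on each wild-type array (grey circles, 6 controls in order 1 to 6; red squares, lesions 1 to 3), with the mean and SD of each group at its right. Ptgs2 on the lesions lies between 10.38 and 11.45, above every control, and Hpgd between 7.91 and 8.72, below every control, while Pla2g4a overlaps.

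Oxidases and some secreted antimicrobials rose. Of 12 NADPH oxidase genes 8 were higher and 0 lower, with a median of 0.64. Cybb, the phagocyte oxidase, read 7.20, 7.93 and 7.98 against 4.84 to 5.21 (median 4.95) on the controls, 2.70 ± 0.27 (6.50-fold, adjusted p = 7.11e-06). Epithelial Nox1 read 9.92, 9.62 and 10.47 against 7.21 to 9.06 (median 8.11) on the controls, 1.91 ± 0.42 (3.76-fold, adjusted p = 0.0054), from controls spread over almost 2 units. Duox2 and its maturation factor Duoxa2, which make hydrogen peroxide at the surface, rose by 1.47 ± 0.24 (2.78-fold, adjusted p = 0.000596) and 1.73 ± 0.27 (3.32-fold, adjusted p = 0.000342). The antibacterial lectin Reg3b read 13.33, 13.26 and 12.54 against 6.29 to 11.49 (median 7.60) on the controls. Its relative Reg3g read 11.93, 11.75 and 10.95 against 6.12 to 8.56 (median 6.56) on the controls. Controls of Reg3b were spread over more than 5 units, and the highest of them was still below every lesion. Their differences were 4.84 ± 0.94 (28.7-fold, adjusted p = 0.0021) and 4.47 ± 0.58 (22.1-fold, adjusted p = 8.1e-05), with 2 of 6 measured genes of the Reg cluster higher. The phospholipase Pla2g2a rose by 2.51 ± 0.31 (5.69-fold, adjusted p = 4.65e-05). Ang4, an antimicrobial ribonuclease of goblet and Paneth cells, went down, from 9.91 to 11.81 (median 10.63) on the controls to 8.36, 8.93 and 8.76, -2.09 ± 0.38 (4.26-fold lower, adjusted p = 0.0013).

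Markers of neutrophils and monocytes were higher. Of 21 neutrophil genes 13 were higher and 0 lower (median 1.28), and of 18 monocyte and macrophage genes 14 were higher and 0 lower (median 0.93). S100a8 and S100a9 form calprotectin. S100a8 read 9.54, 9.48 and 8.09 against 2.99 to 3.32 (median 3.15) on the controls. S100a9 read 10.36, 9.75 and 8.77 against 4.54 to 5.18 (median 4.67) on the controls, and lesion 3 was the lowest lesion for both. The differences were 5.89 ± 0.35 (at least 59.4-fold, adjusted p = 5.32e-08) and 4.86 ± 0.38 (at least 29.1-fold, adjusted p = 5.8e-07). Granule genes made in neutrophil precursors of the marrow were not called: Mpo was at -0.11 and Elane at -0.08. Ly6c2, of inflammatory monocytes, read 11.14, 11.07 and 10.97 against 6.30 to 7.36 (median 7.14) on the controls, 4.12 ± 0.22 (17.4-fold, adjusted p = 1.75e-08). Lyz2, lysozyme of myeloid cells, rose by 3.07 ± 0.23 (8.39-fold, adjusted p = 3.38e-07) and Csf1r, the receptor of macrophage growth factor, by 1.56 ± 0.11 (2.95-fold, adjusted p = 1.86e-07). Markers of mature and resident macrophages were split. The complement chain C1qb rose by 1.04 ± 0.15 (2.06-fold, adjusted p = 0.000207), the mannose receptor Mrc1 by 0.88 ± 0.17 (1.84-fold, adjusted p = 0.0023) and Adgre1 (F4/80) by 0.98 ± 0.13 (at least 1.97-fold, adjusted p = 9.17e-05), while Cd163 (-0.11), Timd4 (0.11) and Cx3cr1 (0.21) were not called. Clec7a (dectin-1, a receptor for fungal glucan) read 8.88, 9.20 and 9.52 against 4.38 to 4.72 (median 4.48) on the controls, 4.70 ± 0.26 (at least 26.0-fold, adjusted p = 2.32e-08). Among the 11 measured genes of chromosome 6 with a Clec4 name or named Clec7a, 6 were higher, and its rise was the largest. Clec7a was chosen after the values were seen.

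Lymphocyte genes gave smaller and split results. Of 18 T and NK cell genes 9 were higher and 0 lower (median 0.34). Il7r, the receptor of a T cell survival factor, read 5.63, 6.09 and 6.53 against 4.28 to 4.85 (median 4.55) on the controls, 1.53 ± 0.19 (at least 2.88-fold, adjusted p = 4.42e-05), and Icos, a co-stimulator, rose by 1.18 ± 0.13 (at least 2.27-fold, adjusted p = 1.82e-05). Among genes of cytotoxic and NK cells, granzyme B (Gzmb) rose by 0.80 ± 0.16 (at least 1.74-fold, adjusted p = 0.0026). Klrb1c (NK1.1) was at 0.30 ± 0.08 (at least 1.23-fold, adjusted p = 0.0166) and lost its call without single lesions (adjusted p = 0.104 without lesion 2 and 0.0850 without lesion 3), and Cd8a (0.17), Prf1 (-0.16) and Ncr1 (0.01) were not called. Of 12 dendritic cell genes 5 were higher, a count that fell to 3 without lesion 1 or lesion 2 and to 2 without lesion 3. Itgax, the integrin CD11c, rose by 0.91 ± 0.10 (1.88-fold, adjusted p = 2.2e-05). B and plasma cell genes gave 1 call of 15, and Jchain, which links IgA, was at 1.11 ± 0.50 (adjusted p = 0.161). Kit, the stem cell factor receptor found on mast cells and on some epithelial and interstitial cells, read 6.90, 6.55 and 6.76 against 8.38 to 8.85 (median 8.52) on the controls, -1.83 ± 0.20 (3.56-fold lower, adjusted p = 1.85e-05). Of 11 mast cell genes, Kit included, 2 were higher and 2 lower, and Ms4a2 was at -0.01 and Cma1 at -0.05.

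Fibroblast genes were higher in most of their list and endothelial genes in fewer. Of 19 endothelial genes 5 were higher and 0 lower (median 0.09). Vcam1, which holds leukocytes to the vessel wall, rose by 1.18 ± 0.12 (2.26-fold, adjusted p = 1.11e-05), Icam1 by 0.85 ± 0.14 (1.80-fold, adjusted p = 0.000618) and Cdh5, the endothelial cadherin, by 1.31 ± 0.24 (2.48-fold, adjusted p = 0.0012), while Pecam1 was at 0.36 (adjusted p = 0.0583) and Vwf at 0.03. Of 13 fibroblast and pericyte genes 8 were higher and 0 lower (median 0.81). Decorin (Dcn), a collagen-binding proteoglycan, read 9.36, 10.02 and 9.72 against 5.60 to 6.43 (median 5.87) on the controls, 3.76 ± 0.21 (13.6-fold, adjusted p = 2.32e-08). Grem1, a BMP inhibitor of crypt-base stroma, read 7.75, 8.28 and 7.93 against 4.86 to 6.21 (median 5.32) on the controls, 2.61 ± 0.24 (6.09-fold, adjusted p = 3.9e-06), and Pdpn rose by 1.86 ± 0.20 (3.64-fold, adjusted p = 1.75e-05). No lesion overlapped a control for these 3, whereas Lum (0.04) and Rspo3 (0.08) were not called.

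Matrix proteases held the largest rise among all genes tested, that of Mmp13. Of 18 metalloproteinase and inhibitor genes 13 were higher and 1 lower, with a median of 1.17. Mmp13, a collagenase, read 11.47, 11.63 and 11.18 against 4.62 to 5.21 (median 4.82) on the controls, with the lesions close together. Its difference was 6.55 ± 0.18 (at least 93.6-fold, adjusted p = 1.02e-11). Mmp10 (stromelysin-2) read 10.29, 10.51 and 9.89 against 4.49 to 4.82 (median 4.66) on the controls, 5.54 ± 0.18 (at least 46.6-fold, adjusted p = 3.66e-11). Mmp3 read 8.12, 7.27 and 6.83 against 4.47 to 4.73 (median 4.56) on the controls, highest in lesion 1, and Mmp12, the macrophage elastase, 6.22, 6.75 and 6.92 against 3.51 to 3.67 (median 3.59) on the controls, lowest in lesion 1. Their differences were 2.83 ± 0.35 (at least 7.12-fold, adjusted p = 5.24e-05) and 3.04 ± 0.49 (at least 8.21-fold, adjusted p = 0.000482). Epithelial Mmp7 read 8.02, 6.39 and 7.64 against 4.78 to 5.06 (median 5.0) on the controls, with lesion 2 more than 1 unit below the other lesions, at 2.38 ± 0.34 (5.21-fold, adjusted p = 0.000173). Of the 10 measured genes of the metalloproteinase cluster on chromosome 9, 6 were higher (Mmp13, Mmp12, Mmp3, Mmp10, Mmp8 and Mmp7), and their neighbours Mmp1a (-0.08), Mmp1b (-0.13), Mmp20 (-0.11) and Mmp27 (0.03) were not called. Mmp8, of neutrophils, was at 1.37 ± 0.37 (at least 2.59-fold, adjusted p = 0.0174). It lost its call without single lesion arrays (adjusted p = 0.0508 without lesion 1, 0.0672 without lesion 2 and 0.0577 without lesion 3). Its SD was 0.06 among these lesions and 0.15 among these controls, which did not overlap, and its error pools the knockout arrays as well. The inhibitor Timp1 rose by 0.55 ± 0.08 (1.47-fold, adjusted p = 0.000246).

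Promoters of the 2 metalloproteinases with the largest rises and of Cxcl2 are shown because their genes moved together and each holds letters that stood in a larger share of the higher genes than of all genes. Capitals mark matches on either strand, in the 250 bases before the start on the coding strand of GRCm38.p6.
Mmp13: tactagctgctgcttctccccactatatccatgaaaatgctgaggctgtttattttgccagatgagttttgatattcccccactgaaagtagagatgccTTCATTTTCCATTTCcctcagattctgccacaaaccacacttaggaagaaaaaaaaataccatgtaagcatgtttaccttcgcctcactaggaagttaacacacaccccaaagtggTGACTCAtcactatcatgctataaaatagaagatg
Mmp10: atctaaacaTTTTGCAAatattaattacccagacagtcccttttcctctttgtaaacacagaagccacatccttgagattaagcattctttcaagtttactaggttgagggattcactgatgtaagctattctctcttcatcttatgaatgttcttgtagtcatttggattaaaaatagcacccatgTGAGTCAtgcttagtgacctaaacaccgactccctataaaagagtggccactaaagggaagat
Cxcl2: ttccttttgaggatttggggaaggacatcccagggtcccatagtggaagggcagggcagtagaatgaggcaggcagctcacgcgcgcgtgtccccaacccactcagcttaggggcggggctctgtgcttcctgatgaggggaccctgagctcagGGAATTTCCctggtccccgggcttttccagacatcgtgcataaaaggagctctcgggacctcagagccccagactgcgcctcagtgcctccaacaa
Mmp13 holds AP-1 letters at bases 216 to 222 and 2 overlapping matches to the response-element core at 100 to 108 and 106 to 114. Mmp10 holds AP-1 letters at 188 to 194 and C/EBP letters at 10 to 17, and Cxcl2 an NF-kB match at 155 to 163. The windows are chr9:7272264-7272513, chr9:7502092-7502341 and chr5:90903649-90903898, on the plus strand.

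Collagens and other matrix proteins rose less. Of 18 collagens 11 were higher and 1 lower (median 0.41). Col12a1, which coats collagen fibrils, read 7.85, 8.31 and 8.15 against 5.52 to 6.03 (median 5.55) on the controls, 2.47 ± 0.16 (5.54-fold, adjusted p = 6.91e-08), and Col1a1 and Col3a1, the main fibrillar collagens, rose by 0.87 ± 0.12 (1.83-fold, adjusted p = 0.00017) and 1.04 ± 0.20 (2.06-fold, adjusted p = 0.0019). Col8a1, a short-chain collagen, fell by 1.63 ± 0.12 (at least 3.10-fold lower, adjusted p = 3.15e-07), from 6.20 to 6.58 (median 6.29) on the controls to 4.83, 4.80 and 4.51. Fibronectin (Fn1) read 9.38, 9.36 and 9.59 against 6.46 to 6.98 (median 6.68) on the controls and tenascin C (Tnc) 8.94, 9.55 and 9.17 against 6.20 to 6.74 (median 6.67) on the controls, with differences of 2.76 ± 0.18 (6.76-fold, adjusted p = 7.96e-08) and 2.66 ± 0.20 (6.31-fold, adjusted p = 3.24e-07). Of 13 matrix glycoproteins and laminins 10 were higher and 0 lower (median 0.74), among them the crosslinking enzyme Lox, by 1.46 ± 0.13 (at least 2.75-fold, adjusted p = 3.53e-06), and Sparc, by 1.61 ± 0.18 (3.05-fold, adjusted p = 1.85e-05).

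Genes of clotting, fibrinolysis and complement rose too. Tissue factor (F3), which starts coagulation, read 10.49, 10.57 and 10.62 against 6.78 to 7.52 (median 7.07) on the controls, with the lesions close together, at 3.49 ± 0.18 (11.2-fold, adjusted p = 1.05e-08). Urokinase (Plau) and its receptor Plaur rose by 2.11 ± 0.26 (4.33-fold, adjusted p = 4.79e-05) and 2.36 ± 0.25 (5.13-fold, adjusted p = 1.11e-05), and tissue plasminogen activator (Plat) by 1.20 ± 0.12 (2.30-fold, adjusted p = 7.08e-06). F13a1, the chain of factor XIII in macrophages, read 7.72, 6.67 and 8.42 against 5.05 to 5.20 (median 5.14) on the controls, with lesion 2 lowest, at 2.48 ± 0.31 (5.57-fold, adjusted p = 5.24e-05). Tfpi2, a protease inhibitor, fell by 1.31 ± 0.25 (adjusted p = 0.0018). Of 13 complement genes 8 were higher and 0 lower. C1s1, a protease of the classical pathway, rose by 2.91 ± 0.18 (7.52-fold, adjusted p = 6.21e-08), its inhibitor Serping1 by 2.09 ± 0.15 (4.27-fold, adjusted p = 3.24e-07) and C4b by 1.5 ± 0.08 (2.83-fold, adjusted p = 1.26e-08), while C6 (-0.01) and C7 (-0.14) of the terminal pathway were not called.

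Growth factors of the TGF-beta family moved both ways. Of 17 genes 10 were higher and 1 lower (median 0.46). Inhba, which forms activin A, read 6.63, 7.49 and 7.0 against 5.08 to 5.44 (median 5.20) on the controls, 1.81 ± 0.23 (3.50-fold, adjusted p = 8.03e-05), and Tgfb1 rose by 1.08 ± 0.12 (2.11-fold, adjusted p = 2.2e-05) and Bmp4 by 1.27 ± 0.16 (2.42-fold, adjusted p = 5.18e-05). Bmp3, a BMP antagonist of the colonic epithelium, read 6.63, 6.85 and 6.95 against 8.23 to 9.17 (median 8.63) on the controls, -1.84 ± 0.28 (3.58-fold lower, adjusted p = 0.000297), and was the only member called lower.

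**Figure D3:**
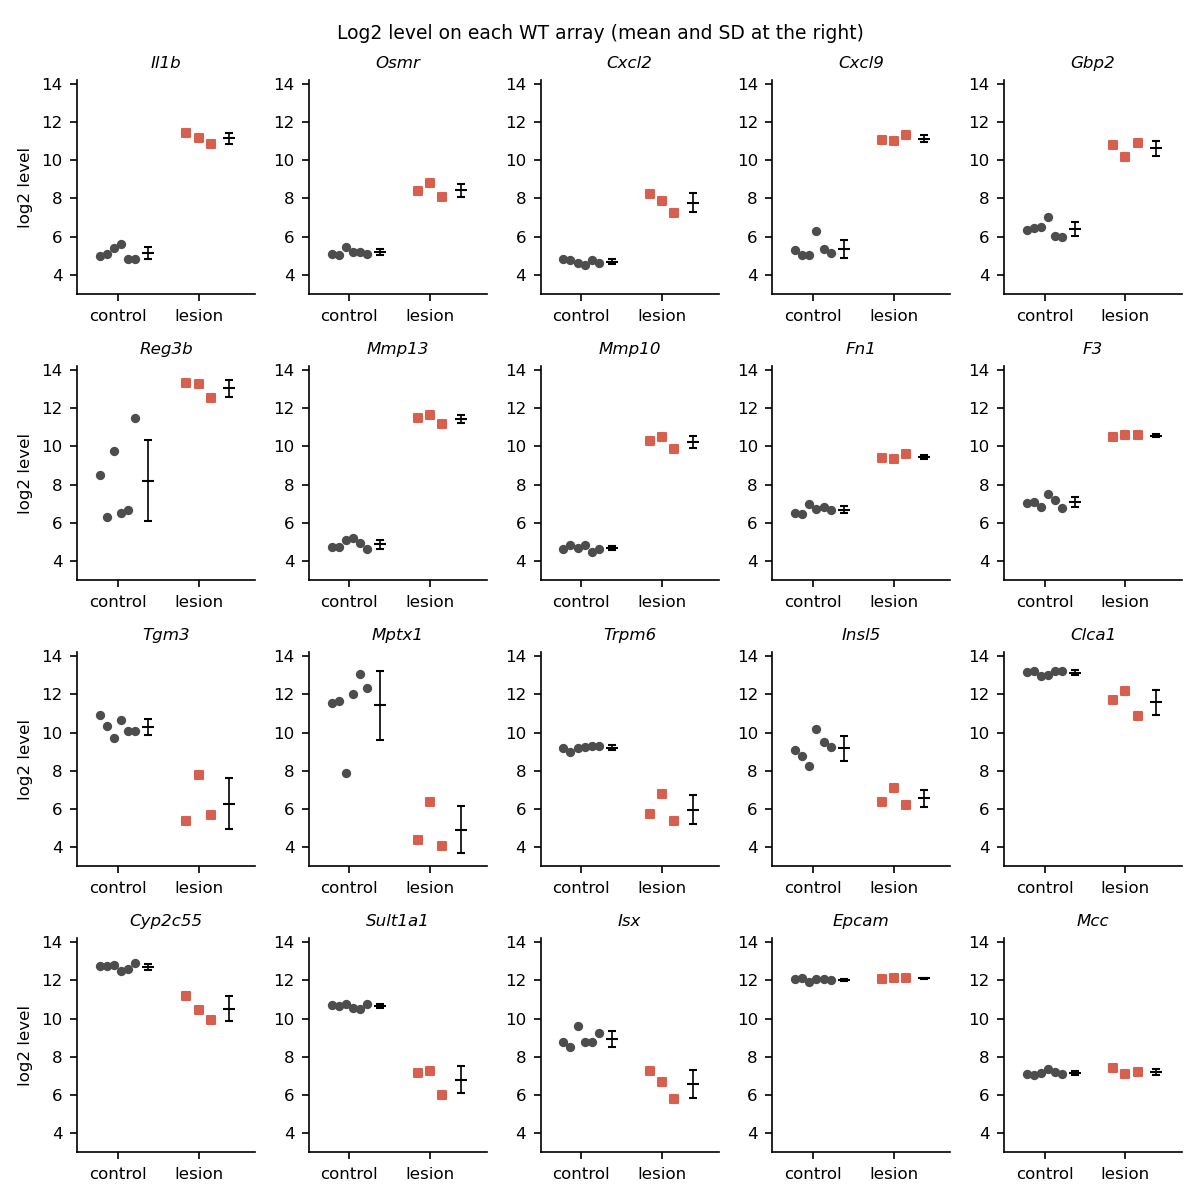
Log2 level of 20 genes on each wild-type array (grey circles, 6 controls; red squares, lesions 1 to 3), with the mean and SD of each group at its right. Lesions of Il1b, Osmr, Mmp13 and F3 form tight groups above the controls, Reg3b has controls spread from 6.29 to 11.49, lesion 2 holds the highest level of Tgm3, Mptx1 and Trpm6 among the lesions, and Epcam and Mcc overlap.

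Genes of the secretory cells of the epithelium were lower. The 10 pan-epithelial genes averaged 11.04 to 11.12 on the lesions and 10.87 to 11.01 on the controls, and with leukocyte and fibroblast markers higher on the same arrays, the part of tissue makeup in the falls below was not tested. Of 16 goblet cell and mucus genes 11 were lower and 0 higher, against 8.37% of all genes called lower, with a median of -0.79. Clca1, a metalloprotease of the mucus layer, read 11.69, 12.15 and 10.88 against 12.94 to 13.24 (median 13.19) on the controls, -1.56 ± 0.25 (2.94-fold lower, adjusted p = 0.000549), lesion 3 being lowest. B3gnt6, which builds core 3 O-glycans, read 6.14, 5.68 and 6.01 against 7.48 to 8.45 (median 7.77) on the controls, -1.94 ± 0.35 (3.83-fold lower, adjusted p = 0.0012). The lineage factors Atoh1 and Spdef fell by 1.33 ± 0.28 (adjusted p = 0.0039) and 0.79 ± 0.16 (adjusted p = 0.0031). Tff3 (-0.52, adjusted p = 0.0507) and Agr2 (-0.46, adjusted p = 0.117) were not called. The transmembrane mucin Muc4 went the other way, at 0.97 ± 0.14 (1.95-fold, adjusted p = 0.000225), while Muc1 (0.43), Muc3 (-0.02) and Muc13 (0.19) did not pass.

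Of 17 enteroendocrine genes 10 were lower and 0 higher (median -0.57). Insl5, a hormone of colonic L cells, read 6.39, 7.07 and 6.19 against 8.25 to 10.19 (median 9.17) on the controls, -2.62 ± 0.44 (6.16-fold lower, adjusted p = 0.000675). Gcg, the proglucagon gene of the same cells, read 6.69, 7.0 and 6.79 against 8.21 to 8.79 (median 8.44) on the controls, -1.65 ± 0.28 (3.14-fold lower, adjusted p = 0.000739), and Pyy fell by 1.33 ± 0.28 (adjusted p = 0.0038). Tph1, the serotonin-making enzyme of enterochromaffin cells, fell by 1.36 ± 0.20 (adjusted p = 0.000209) and Chga, of their granules, by 1.48 ± 0.24 (adjusted p = 0.000595). Lesions lay below all controls for these 5 genes. The progenitor factor Neurog3 was at -0.23 (adjusted p = 0.201). Of 11 tuft cell genes 7 were lower and 0 higher (median -0.39). Rgs13, a regulator of G proteins, read 4.70, 5.62 and 5.01 against 6.67 to 7.17 (median 6.89) on the controls, -1.78 ± 0.36 (3.45-fold lower, adjusted p = 0.0026). Gnat3, the taste G protein, was at -1.34 ± 0.29 (at least 2.53-fold lower, adjusted p = 0.0050), with the lineage factor Pou2f3 at -0.47 ± 0.07 (1.39-fold lower, adjusted p = 0.000224).

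Most stem cell and proliferation genes were not called, and of all genes 6.98% were called higher and 8.37% lower. Of 15 stem cell and Wnt target genes 1 was higher (Cd44, at 0.82 ± 0.18, 1.77-fold, adjusted p = 0.0040) and 3 lower, a count of 1 without lesion 2 and of 5 without lesion 1. Lgr5, the crypt stem cell receptor, read 5.86, 4.97 and 5.82 against 5.87 to 6.42 (median 5.99) on the controls, with lesion 2 far below the other lesions, and was not called (-0.49 ± 0.18, adjusted p = 0.0779). Of 18 cell cycle genes 1 was called, Top2a, and 17 were not, though every difference was above 0 and their median was 0.45. Mki67, the proliferation antigen, read 10.93, 10.96 and 11.37 against 10.08 to 10.59 (median 10.41) on the controls, with every lesion above every control (0.71 ± 0.26, adjusted p = 0.0821). Top2a was at 0.91 ± 0.28 and lost its call (adjusted p from 0.0565 to 0.177) without lesion 1, 2 or 3 or control 1, 2, 3 or 6.

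Genes of absorptive functions were lower across several gene groups. Of 25 ion and water transport genes 10 were lower and 0 higher (median -0.64). Trpm6, the magnesium channel of colonocytes, read 5.71, 6.80 and 5.34 against 8.95 to 9.31 (median 9.22) on the controls, -3.25 ± 0.33 (9.50-fold lower, adjusted p = 9.57e-06), lesion 2 keeping over 1 unit more than the other lesions. Slc26a3, the chloride-bicarbonate exchanger, read 9.29, 10.59 and 9.28 against 11.21 to 11.69 (median 11.47) on the controls, again highest in lesion 2, at -1.74 ± 0.36 (3.34-fold lower, adjusted p = 0.0036). Guanylin (Guca2a) fell by 1.59 ± 0.22 (adjusted p = 0.000134) and the water channel Aqp8 by 1.43 ± 0.29 (adjusted p = 0.0026). The sodium channel subunits Scnn1a (-0.38), Scnn1b (-0.43) and Scnn1g (-0.06) were not called. Of 17 genes of fatty acid oxidation and ketogenesis 9 were lower and 0 higher (median -0.39), among them Acaa2, the thiolase, at -1.07 ± 0.11 (2.10-fold lower, adjusted p = 1.29e-05) and the butyrate carrier Slc16a1 at -0.78 ± 0.12 (1.72-fold lower, adjusted p = 0.00035).

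Further falls concerned single genes of the colonic surface. Tgm3, a transglutaminase, read 5.36, 7.79 and 5.68 against 9.69 to 10.89 (median 10.20) on the controls, -4.01 ± 0.48 (16.1-fold lower, adjusted p = 4.06e-05). Scin, an actin-severing protein, read 7.44, 8.04 and 6.98 against 10.15 to 10.87 (median 10.36) on the controls, -2.92 ± 0.28 (7.58-fold lower, adjusted p = 4.59e-06). Mptx1, a mucosal pentraxin, read 4.37, 6.34 and 4.06 against 7.91 to 13.07 (median 11.84) on the controls: control 3 was far below the other controls and lesion 2 above the other lesions, and the difference was -6.50 ± 0.86 (at least 90.4-fold lower, adjusted p = 9.04e-05). Otc, the urea-cycle enzyme of enterocytes, read 5.58, 6.63 and 6.85 against 8.46 to 8.97 (median 8.86) on the controls, -2.42 ± 0.45 (5.36-fold lower, adjusted p = 0.0015). Clps, colipase, was at -2.67 ± 0.27 (6.37-fold lower, adjusted p = 9.6e-06) and Sycn, syncollin, at -2.52 ± 0.36 (5.72-fold lower, adjusted p = 0.000176). Both are best known from the exocrine pancreas, of whose other genes Cpa1 (0.02), Ctrb1 (-0.11) and Prss2 (-0.12) were not called. Of 18 brush border genes 4 were higher and 5 lower. The count of higher ones was 1 without lesion 2 and 0 with controls 1 to 3 alone, and that of lower ones 3 without lesion 3. The metalloprotease Mep1a fell by 2.03 ± 0.27 (adjusted p = 9.93e-05) and the peptidase Anpep rose by 0.85 ± 0.19 (1.80-fold, adjusted p = 0.0066). Structural genes were split: Vil1 (0.28) and Myo1a (0.15) were not called, while Eps8 was called higher and Espn lower. Eps8 lost its call without lesion 2 (adjusted p = 0.1115). Espn lost its call without lesion 2 or 3 or control 1 or 4 (adjusted p from 0.0513 to 0.1373). The homeobox factor Isx, which limits vitamin A uptake, read 7.25, 6.70 and 5.82 against 8.49 to 9.63 (median 8.77) on the controls, lowest in lesion 3, at -2.35 ± 0.34 (5.10-fold lower, adjusted p = 0.00021). Ppargc1a and Ppara, regulators of mitochondrial and lipid genes, fell by 1.55 ± 0.31 (adjusted p = 0.0028) and 1.02 ± 0.14 (adjusted p = 0.000148). Of 19 intestinal transcription factors and nuclear receptors 8 were lower and 0 higher, and 5 were lower without lesion 2.

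Enzymes that handle drugs and other foreign compounds fell. Of 23 cytochrome P450 genes 12 were lower and 2 higher, and without lesion 3 the count of lower genes was 6. Of 22 conjugating enzymes 10 were lower and 0 higher (median -0.67). Sult1a1, a phenol sulfotransferase, read 7.17, 7.26 and 5.99 against 10.50 to 10.78 (median 10.69) on the controls, -3.85 ± 0.52 (14.4-fold lower, adjusted p = 0.000118), with lesion 3 lowest. Ugt2b5, a glucuronosyltransferase, read 4.93, 4.29 and 4.04 against 6.99 to 7.79 (median 7.45) on the controls, -3.01 ± 0.39 (at least 8.08-fold lower, adjusted p = 7.54e-05), and all 7 measured genes of its cluster were lower. Cyp2c55 read 11.20, 10.46 and 9.91 against 12.48 to 12.89 (median 12.76) on the controls, lowest in lesion 3, at -2.19 ± 0.35 (4.57-fold lower, adjusted p = 0.000473). Cyp2c68 read 4.25, 5.11 and 4.53 against 7.96 to 8.76 (median 8.21) on the controls, -3.63 ± 0.47 (at least 12.4-fold lower, adjusted p = 7.2e-05). Of the 14 measured Cyp2c genes 12 were lower, the exceptions being Cyp2c70 (-0.15) and Cyp2c23 (-0.15), and Ces2a, a carboxylesterase, fell by 2.49 ± 0.46 (adjusted p = 0.0014) with 5 of 6 genes of its cluster lower. Copies within these gene groups are close in sequence, and probes may read several. Abcb1a, the efflux pump P-glycoprotein, fell by 1.27 ± 0.23 (adjusted p = 0.0013).

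Letters of the HNF4 site (CAAAGTCCA), which hepatocyte nuclear factor 4 is known to bind in liver and gut genes, stood in 0.57% of all promoters, 0.93% of the higher and 3.90% of the lower genes (8 of 205). Of these 8, 5 are Cyp2c genes, of 7 in that set, which are paralogues of each other, and the other 3 are Alpi, Hsd3b3 and Osbpl6. Hnf4a itself read 9.79, 9.75 and 9.83 against 9.67 to 10.06 (median 9.95) on the controls, at -0.11 ± 0.10 (adjusted p = 0.532). The Cyp2c68 promoter is shown as the member with the largest fall, with the HNF4 letters at bases 174 to 182 in capitals, on the minus strand of GRCm38.p6 (chr19:39741102-39741351).
Cyp2c68: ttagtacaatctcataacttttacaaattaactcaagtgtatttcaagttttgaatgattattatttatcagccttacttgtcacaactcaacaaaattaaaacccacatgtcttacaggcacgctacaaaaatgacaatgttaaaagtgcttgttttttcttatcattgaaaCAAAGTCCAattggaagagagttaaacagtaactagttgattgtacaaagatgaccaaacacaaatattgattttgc

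**Figure D4:**
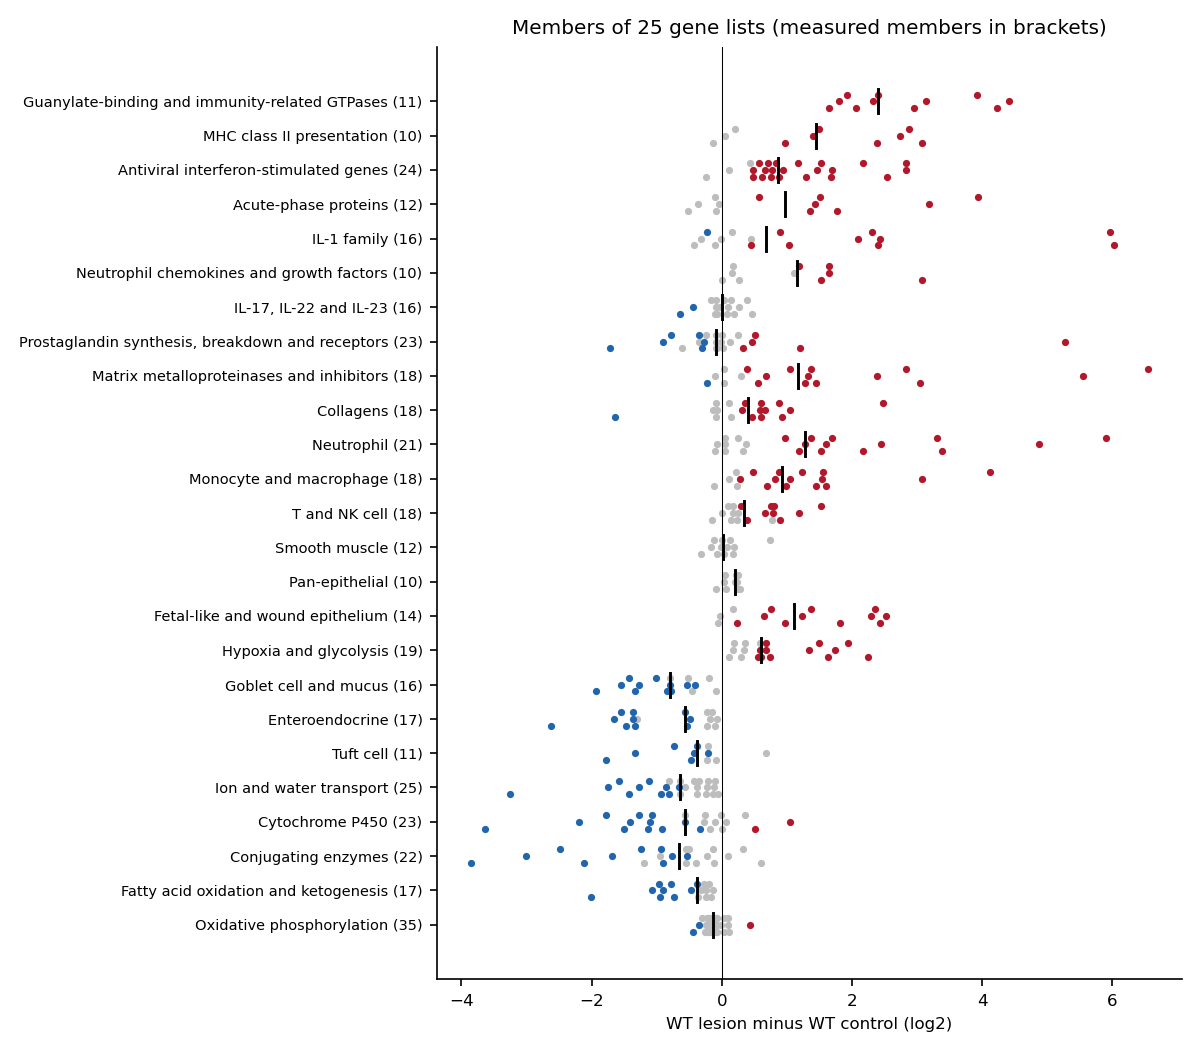
Lesion minus control difference (log2) of each measured member of 25 gene lists, with members called higher in red, called lower in blue, others in grey, and the median of a list as a black bar. All 11 guanylate-binding and immunity-related GTPases lie to the right of 1.6, the goblet, enteroendocrine and tuft lists have no red point, and the smooth muscle and pan-epithelial lists hold grey points only.

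Most tight junction genes were not called. Of 16 claudin and tight junction genes 1 was higher and 4 lower (median -0.17), against 6.98% and 8.37% of all genes. Cldn4 read 10.46, 10.11 and 10.38 against 8.47 to 9.26 (median 9.01) on the controls, 1.42 ± 0.22 (2.68-fold, adjusted p = 0.00029), and all lesions were above the controls. Cldn8, a sealing claudin of the distal gut, read 6.02, 6.94 and 6.07 against 7.27 to 7.48 (median 7.32) on the controls, with lesion 2 near the controls, at -1.01 ± 0.17 (2.01-fold lower, adjusted p = 0.00078), and Ocln (occludin) read 8.82, 9.02 and 9.03 against 9.50 to 9.67 (median 9.55) on the controls, -0.62 ± 0.07 (1.53-fold lower, adjusted p = 2.2e-05). Cldn2 (-0.28), Cldn3 (-0.16), Cldn7 (0.24) and Tjp1 (0.23) were not called. Of 16 keratin and desmosome genes 7 were higher and 0 lower, and 4 were higher without lesion 2 and 2 with controls 1 to 3 alone. Cdh1, E-cadherin, was at 0.22 (adjusted p = 0.0597).

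Genes seen in fetal-like and wound-edge epithelium rose: 11 of 14 were higher and 0 lower, with a median of 1.10. Ly6d read 8.74, 8.92 and 8.41 against 5.90 to 6.37 (median 6.19) on the controls, 2.52 ± 0.26 (5.74-fold, adjusted p = 1.06e-05). Anxa1 and Anxa8, which bind membranes, rose by 1.81 ± 0.16 (3.52-fold, adjusted p = 1.62e-06) and 2.29 ± 0.27 (4.91-fold, adjusted p = 3.22e-05). Several members of that list, such as Il33 and Plaur, are also made by stroma or leukocytes. In the Ly6 cluster 10 of 20 measured genes were higher, from Ly6d to the leukocyte antigens Ly6c1, at 3.57 ± 0.18 (11.9-fold, adjusted p = 1.02e-08), and Ly6g, at 3.30 ± 0.48 (9.84-fold, adjusted p = 0.000206). Of 13 EGF receptor ligands and receptors 4 were higher and 1 lower. Nrg1, a stromal ligand of ERBB receptors, read 7.74, 8.65 and 8.29 against 5.25 to 5.99 (median 5.59) on the controls, 2.64 ± 0.23 (6.24-fold, adjusted p = 2.24e-06). Epiregulin (Ereg) rose by 2.17 ± 0.32 (4.49-fold, adjusted p = 0.00023) and the receptor Egfr by 0.86 ± 0.13 (1.82-fold, adjusted p = 0.000372), while Egf fell by 0.67 ± 0.08 (adjusted p = 2.35e-05).

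Metabolic and stress genes shifted in some groups and not in others. Of 19 hypoxia and glycolysis genes 12 were higher and 0 lower (median 0.60). Adrenomedullin (Adm), a hypoxia-induced peptide, read 9.88, 9.93 and 9.02 against 6.94 to 7.69 (median 7.41) on the controls, 2.24 ± 0.24 (4.73-fold, adjusted p = 1.29e-05), Hif1a rose by 1.5 ± 0.22 (2.82-fold, adjusted p = 0.000228) and Hk2, the first enzyme of glycolysis, by 1.64 ± 0.22 (3.11-fold, adjusted p = 0.000115). Ldha (0.17) and Aldoa (0.12) were not called. Of 35 oxidative phosphorylation genes 1 was higher and 2 lower (median -0.14), under the 6.98% and 8.37% of all genes called higher and lower. Of 11 NRF2 targets 6 were higher and 0 lower. The cystine carrier Slc7a11 read 8.29, 8.19 and 8.52 against 5.34 to 5.70 (median 5.61) on the controls, 2.78 ± 0.16 (6.85-fold, adjusted p = 2.32e-08), and haem oxygenase Hmox1 rose by 1.55 ± 0.23 (2.93-fold, adjusted p = 0.000207), whereas Nqo1, a standard target, was at 0.10 (adjusted p = 0.792). Of 16 unfolded protein response genes 1 was higher and 2 lower, close to those shares, and the chaperone Hspa5 was at 0.09 (adjusted p = 0.686).

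Some enzymes that use arginine and tryptophan rose. Nos2, the inducible nitric oxide synthase, read 10.60, 9.68 and 9.63 against 5.58 to 5.99 (median 5.89) on the controls, 4.13 ± 0.27 (17.5-fold, adjusted p = 1.08e-07). Arg1, which competes with it for arginine, rose by 1.59 ± 0.18 (3.02-fold, adjusted p = 2.43e-05). Ido1, which degrades tryptophan and is induced by interferon gamma, read 10.68, 9.33 and 10.82 against 5.94 to 7.37 (median 6.56) on the controls, with lesion 2 more than 1 unit below the other lesions, at 3.60 ± 0.53 (12.1-fold, adjusted p = 0.000246). Tdo2, the other enzyme of that step, went the other way and fell by 1.27 ± 0.12 (at least 2.41-fold lower, adjusted p = 3.45e-06). Of 15 genes of that list 6 were higher and 2 lower.

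Immunoglobulin variable segments were higher as a class. Of 111 heavy chain (Ighv) segments 63 were called higher and 0 lower, 56.8% against 6.98% of all genes, with a median of 1.35, and of 79 kappa (Igkv) segments 23 were higher (29.1%, median 1.13). The counts rest on single lesions. Without lesion 2, 14 heavy chain and 6 kappa segments were called, without lesion 1 41 heavy chain segments, and without knockout lesion 1 37 kappa segments. Array means of the heavy chain segments were 6.85, 7.45 and 6.72 on the lesions and 5.32, 5.41, 6.17, 5.86, 5.86 and 5.95 on controls 1 to 6, and lesion 2 was highest. Probes of related segments can read near-identical sequence, so segments are not independent of each other. T cell receptor segments gave 1 call in all: of 84 Trav segments 0 were higher and 1 lower (median -0.04), and of 19 Trbv segments 0 were called. Of the 10 called genes with the largest SD among lesions 8 were immunoglobulin segments. Ighv3-4 read 5.29, 7.60 and 5.27 on lesions 1 to 3, highest in lesion 2, whereas Ighv1-47 read 7.68, 5.29 and 7.21 and was lowest there. The constant gene Ighg1 read 6.51, 6.41 and 6.27 against 5.54 to 5.96 (median 5.76) on the controls, at 0.65 ± 0.11 (1.57-fold, adjusted p = 0.000577).

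**Figure D5:**
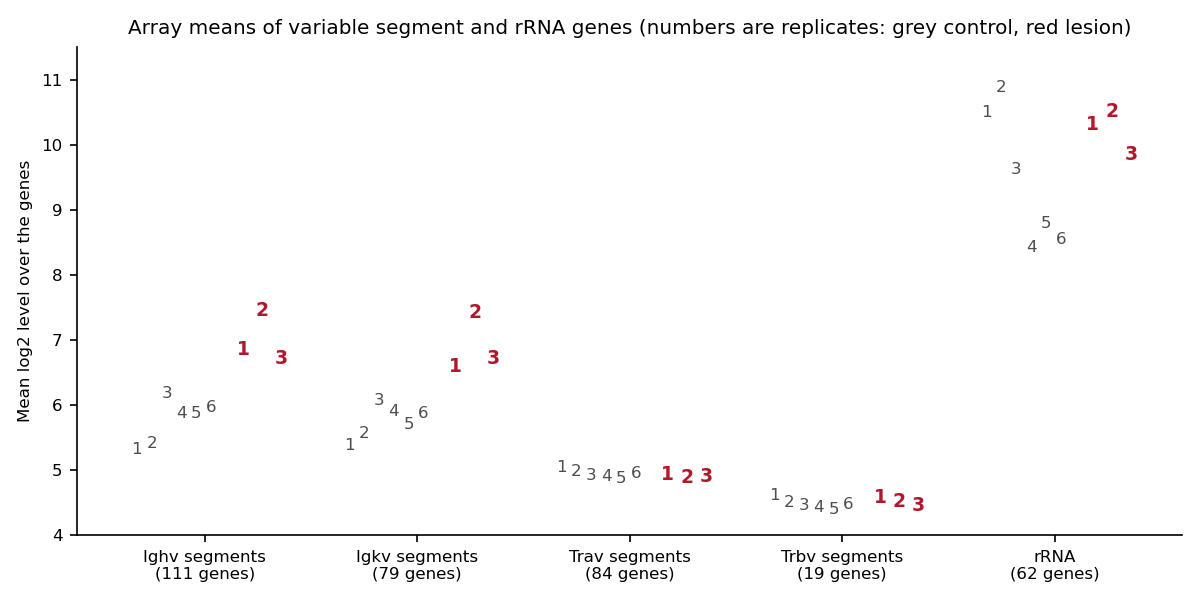
Mean log2 level of the immunoglobulin (Ighv, Igkv) and T cell receptor (Trav, Trbv) variable segments and of ribosomal RNA genes on each wild-type array; digits are replicate numbers, grey for controls and red bold for lesions. Immunoglobulin means are higher on all 3 lesions (6.72 to 7.45 for Ighv) than on any control, T cell receptor means of the 2 groups overlap, and ribosomal RNA means follow the running numbers, with controls 4 to 6 lowest.

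Among 4429 pseudogenes 422 were higher (9.53%) and 79 lower (1.78%), against 6.98% and 8.37% of all genes, and the higher ones had a median difference of 0.47. Without lesion 3 the counts were 263 and 41. Among 3342 long non-coding RNAs 33 were higher (0.987%) and 225 lower (6.73%), both shares under those of all genes, and the count of lower ones was 122 without lesion 2, 111 without lesion 3 and 146 with a common array median. Probes for pseudogenes can read their parent genes. Of 924 microRNA genes 7 were higher (0.758%) and 29 lower (3.14%), both shares under those of all genes. The counts were 4 higher and 50 lower without lesion 1, 8 lower without lesion 2 and 7 lower without lesion 3. These rows read the hairpin gene, not the mature strand. Mir155, whose microRNA restrains inhibitors of inflammatory signalling, read 5.27, 5.62 and 5.0 against 4.12 to 4.50 (median 4.24) on the controls. Its difference was 1.01 ± 0.32 (at least 2.01-fold, adjusted p = 0.0444). It lost its call when any of the 9 wild-type arrays was left out (adjusted p from 0.0538 to 0.188). Its SD was 0.31 among wild-type lesions, 0.17 among wild-type controls and 0.96 among knockout lesions, all of which enter its error. Mir215, of the epithelium, read 6.66, 6.78 and 6.80 against 6.95 to 7.58 (median 7.20) on the controls, -0.52 ± 0.14 (1.43-fold lower, adjusted p = 0.0159), and lost its call without lesion 1 (adjusted p = 0.0676 without lesion 1). Mir192 read 3.47, 3.94 and 4.23 against 3.20 to 4.96 (median 4.41) on the controls and was not called (-0.44 ± 0.27, adjusted p = 0.308). Their mature 5p strands from RefSeq (GRCm38.p6) are shown with the seed, bases 2 to 8, in capitals, because miR-192 and miR-215 share 1 seed while their hairpin genes lie on chromosomes 19 and 1. On the plus strand, the mature strands span chr16:84714143-84714165 (miR-155), chr19:6264857-6264877 (miR-192) and chr1:185313610-185313630 (miR-215).
mmu-miR-155-5p: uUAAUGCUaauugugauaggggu
mmu-miR-192-5p: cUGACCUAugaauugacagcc
mmu-miR-215-5p: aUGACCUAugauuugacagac

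The 3 lesions differed in how often each held the most extreme value of a called gene. Among genes called higher, lesion 2 held the highest value for 933 and lesion 1 for 498, with lesion 3 between them. Among genes called lower, lesion 3 held the lowest value for 950, lesion 2 for 811 and lesion 1 for 808. Means over all genes were 5.850, 5.843 and 5.819 on lesions 1 to 3. The part of such array offsets in these counts was not tested. Genes that move together are counted singly, so the counts do not measure the size of a lesion's response. The median SD over genes was 0.11 among lesions and 0.13 among controls. For genes at least 2-fold higher it was 0.26 among lesions and 0.20 among controls, and for genes at least 2-fold lower 0.21 and 0.22. Tgm3 and Mptx1 were, with the 8 immunoglobulin segments above, the called genes with the largest SD among lesions (1.32 and 1.24).

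The same contrast in the knockout, from its own controls, was tested for a difference in response. Of 30702 genes 1 (0.00326%) had an interaction with adjusted p under 0.05, and 3423 had an unadjusted p under 0.05. That gene was Plat, which rose by 1.20 ± 0.12 (SE) in the wild type and by 3.26 in the knockout, an interaction of 2.06 ± 0.17 (adjusted p = 0.000135). Without knockout lesion 3 the fit called 518 interactions, without knockout lesion 1 it called 5, and without knockout lesion 2 or wild-type lesion 2 it called 2. Il1b was at 6.02 in the wild type and 7.08 in the knockout (interaction adjusted p = 0.406) and Ptgs2 at 5.26 and 6.21 (interaction adjusted p = 0.488). Tgm3 was at -4.01 and -4.39 (interaction adjusted p = 0.806) and Nox1 at 1.91 and 0.23 (interaction adjusted p = 0.406).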

How the data were processed

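RNA from colonic mucosa was hybridised to 16 Affymetrix arrays. The values are the authors' deposited log2 levels, made with Affymetrix Power Tools 1.16.1 and RMA, per the submitters' processing notes; RMA corrects background, equalises the arrays' distributions and summarises probes, so array depth is unknown and the number of arrays limits the precision. Of 72688 rows, 31258 had 1 gene symbol, 1492 several and 39938 none listed here. The row with the highest mean stood for each gene, which left 30702 genes, and 1080 symbols were updated through RefSeq (GRCm38.p6). The build behind the deposited values is not given in the sources used here.

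Group means were fitted with limma 3.58.1 (R 4.3.3) over all 16 arrays, with eBayes, two-sided tests and Benjamini-Hochberg adjustment over all genes. The script was tested on simulated data. Sequences come from RefSeq; plots used matplotlib 3.10.9. Members and gene lists (998 of 1092 list genes were measured) were chosen with earlier results of these data known. Named genes are the 20 largest rises and 20 largest falls measured in both groups, up to 2 per list and direction, preset members of each list, the 10 lowest p-values, the 5 lowest interaction p-values and the 10 largest SDs among lesions; further list and cluster members were named after their values were seen. Alternatives left out each array, changed scaling, row choice, variance model, weights and filter, or added the replicate number or the running-number series.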

Additional observations from a re-analysis of the deposited data

Results flagged for a closer look

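Of 114 genes checked, 11 had 1 control array apart from the others, by a gap to the nearest control over the range of the 6 controls above Dixon's critical value; chance gives about 1 in 20. Control 4 stood apart for 4 genes. It was high for Cxcl9 at 6.31 (ratio 0.767, others 5.06 to 5.35), Igtp at 6.43 (0.658, others 5.67 to 5.93) and Gm12250 at 5.76 (0.630, others 4.68 to 5.08), all induced by interferon, and low for Selenbp2 at 10.68 (0.743, others 10.85 to 10.90). Control 2 was low for Trpm6 at 8.95 (0.704, others 9.20 to 9.31) and Il22 at 4.83 (0.711, others 4.94 to 4.99). Control 3 was high for Arhgap20 at 8.56 (0.689, others 7.61 to 7.91) and Lgr5 at 6.42 (0.659, others 5.87 to 6.06). Control 5 was high for Scin at 10.87 (0.677, others 10.15 to 10.39). Control 6 was low for Ptger4 at 7.59 (0.662, others 7.98 to 8.18) and high for Adipoq at 3.84 (0.652, others 3.49 to 3.61). For Cxcl9, Igtp, Gm12250, Trpm6, Scin, Arhgap20 and Selenbp2 the lesions did not overlap the controls, the array that stood apart included. Genes named as the largest rises or falls had to meet that condition, so it is no check on them. Lesions of Lgr5 did not overlap its controls either, by a small margin. Of all genes 19.7% did not overlap.

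Plat differed in its response between genotypes, by 2.06 (rise of 1.20 in the wild type and 3.26 in the knockout), with an interaction adjusted p of 1.35e-04 in limma.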

How the results depend on the processing

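Of 213 named genes called, 56 lost their call under at least 1 of 28 alternatives (30 without lesion 3, 33 without lesion 2, 18 without lesion 1, 28 with controls 1 to 3 alone), 48 of them when 1 array was left out, and 0 changed direction. Leaving out 1 array gave 1559 to 2359 genes higher, 1598 to 2819 lower, 450 to 571 at least 2-fold higher and 247 to 286 at least 2-fold lower. Interactions called ranged from 1 to 518 in this way. With controls 1 to 3 alone, 1531 genes were lower; the cause of these shifts was not tested. C2, at -0.05 and not called, was at 0.285 when all rows of a gene were averaged. List counts of at least 3 members moved by over 1.5 times for 13 of 53. The count of lower Cyp2c genes was 7 with dim genes left out before the test and 12 without, and that of kappa segments 45 in a fit of the 9 arrays alone and 23 over all 16. Genes with identical values counted once gave 2143 higher and 2566 lower. Same-numbered lesions and controls correlated at 0.347, 0.171 and 0.097, and lesion 3 correlated better with controls 4 and 5 (0.248 and 0.277), so the numbers were not taken as pairing. With the replicate number as a block, 1682 genes were higher and 1853 lower, 31 named genes lost their call and 6 matrix glycoproteins were higher in place of 10, and 3 keratin and desmosome genes in place of 7. Array depth is unknown, and 355 genes called higher had control means under the median of all values.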

Other observations

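On chromosome 1, all 4 measured genes of IgG receptors and their signalling chain were higher, a group chosen after its values were seen. Fcgr2b, the inhibitory receptor, read 7.60, 7.85 and 7.99 against 5.13 to 5.75 (median 5.37) on the controls, 2.41 ± 0.20 (5.30-fold, adjusted p = 8.66e-07). Fcgr3 and Fcgr4, activating receptors, rose by 1.79 ± 0.26 (3.45-fold, adjusted p = 0.000199) and 1.39 ± 0.32 (at least 2.62-fold, adjusted p = 0.0073), and Fcer1g, the chain through which they signal, by 1.58 ± 0.13 (3.0-fold, adjusted p = 1.03e-06). Among metallothioneins and zinc carriers 1 of 10 was higher and 5 were lower, and 3 were lower without lesion 2. The manganese exporter Slc30a10 read 5.21, 4.56 and 4.53 against 6.14 to 7.89 (median 6.95) on the controls, -2.22 ± 0.44 (at least 4.67-fold lower, adjusted p = 0.0024), and the importer Slc39a8 fell by 0.81 ± 0.15 (adjusted p = 0.0016).

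Single genes with measured levels in both groups changed as well. Adgrf1, an adhesion receptor of epithelium, read 8.13, 9.58 and 8.38 against 4.80 to 5.12 (median 5.02) on the controls, 3.70 ± 0.30 (12.99-fold, adjusted p = 8.98e-07). Lyz1, the lysozyme of Paneth cells and the 1 higher gene of 11 on the small intestine list, read 8.79, 9.19 and 9.10 against 6.15 to 6.76 (median 6.41) on the controls, 2.63 ± 0.16 (6.17-fold, adjusted p = 5.32e-08). Lyz2 is a near-identical copy, and probes may read both. Aldh1a1, which makes retinoic acid, read 8.55, 8.42 and 7.76 against 10.18 to 11.16 (median 10.55) on the controls, -2.37 ± 0.33 (5.16-fold lower, adjusted p = 0.000133). Selenbp1 and Selenbp2, near-identical copies that bind selenium, fell by 2.33 ± 0.32 (adjusted p = 0.000128) and 2.30 ± 0.30 (adjusted p = 7.97e-05). Of 11 ADAMTS proteases 5 were higher, among them Adamts12 at 1.25 ± 0.15 (2.38-fold, adjusted p = 3.25e-05).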
